A study of Drosophila melanogaster and Drosophila virilis with 60 samples.

Results

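The cell cycle regulators described here were 10 of the 14127 *D. melanogaster* genes measured, chosen by name. They were the cyclins CycA, CycB, CycD and CycE, the kinases Cdk1 and polo, the phosphatase string (stg), the inhibitor dacapo (dap), the transcription factor E2f1 and the replication clamp PCNA. RNA-seq was performed on whole bodies of wild-type Oregon-R flies reared at 25 °C, from which poly(A) RNA was selected, at 10 stages with 3 libraries each. The stages were embryos aged 10 h, larvae, the pupal stages P1, P2, P3, P4 and P5, pupae aged 24 h and 48 h, and imago (adult) males aged 5 d. Every library was made from pooled animals, the labels call the replicates biological, and the sex of all animals before the imago is labelled unknown, so that the imago differed from the other groups in sex as well as in age. The larval libraries came 1 each from the instars (larval stages between molts), from the 1st to the 3rd. The 2nd instar library, whose quality the study's methods call suboptimal, was left out of all comparisons, so that the larvae were 1 library of the 1st and 1 of the 3rd instar, and 29 of the 30 libraries were compared.

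As background, a dividing cell passes from G1 through DNA synthesis (S phase) and G2 to mitosis, and each passage is driven by kinases that work only when bound to a cyclin. In *Drosophila*, CycD with Cdk4 and CycE with Cdk2 act in G1 and at the entry to S phase, E2f1 switches on the genes of DNA synthesis, PCNA among them, and dap inhibits CycE with Cdk2. CycA and CycB bind Cdk1, which is held inactive until the phosphatase stg removes inhibitory phosphates, and polo acts through mitosis and cytokinesis. During metamorphosis most larval tissues are broken down, many of them with cells that copied their DNA without dividing, while imaginal cells, abdominal histoblasts, adult midgut precursors and neural precursors divide and build the adult.

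The values as deposited lie on a transformed log2 scale, which compresses differences between low counts. They were inverted to normalized counts, that is, counts divided by the size factor of the library, and these are the levels given below. A library held between 7350353 and 13434700 counts in total, as recovered from the deposited values. The paper reports fewer reads per sample than these totals, and the reason was not tested. Normalized counts are not divided by gene length, so that levels are compared between stages within a gene and not between genes. In whole bodies, fewer cells of a type and less RNA per cell cannot be told apart. The libraries were checked against markers of their stages. The summed normalized count of the accessory gland genes was 11099 to 13451 in the imago and at most 24.6 in every other library. The summed level of the prepupal cuticle genes Edg78E and Edg84A was 95778 to 127115 at P4 and 4882 to 6471 at P5. In 24 h pupae it was 12555, 82.7 and 106 in replicates 1, 2 and 3, respectively, so that 24 h replicate 1 stood apart from the other 2, and results that rest on it are given with and without it.

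All 10 members had values that differed between stages (limma, F test over 10 stages, adjusted p from 8.09e-17 for stg to 5.49e-05 for E2f1), as did 92.7% of the 14047 genes tested, so that the count of members is read against this share. The levels were read in the order of the stage means. Of the 90 neighbouring pairs of stages in these orders, 24 differed (adjusted p under 0.05 for the pair), where 12.8% of the neighbouring pairs of all genes, each gene in its own order, did, 5 each in CycB and stg and 1 each in CycD, CycE, E2f1 and polo. In 7 members the embryo had the highest mean and differed from the stage after it in the order. Cdk1, PCNA and polo had their highest mean at P5. PCNA was higher at P5 than in embryos (log2 difference 0.61 ± 0.169, SE, limma, adjusted p = 0.00331), and in Cdk1 and polo the difference did not pass the test (0.20 ± 0.205 and 0.34 ± 0.322, SE, limma, adjusted p = 0.418 and 0.386).

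**Figure D1:**
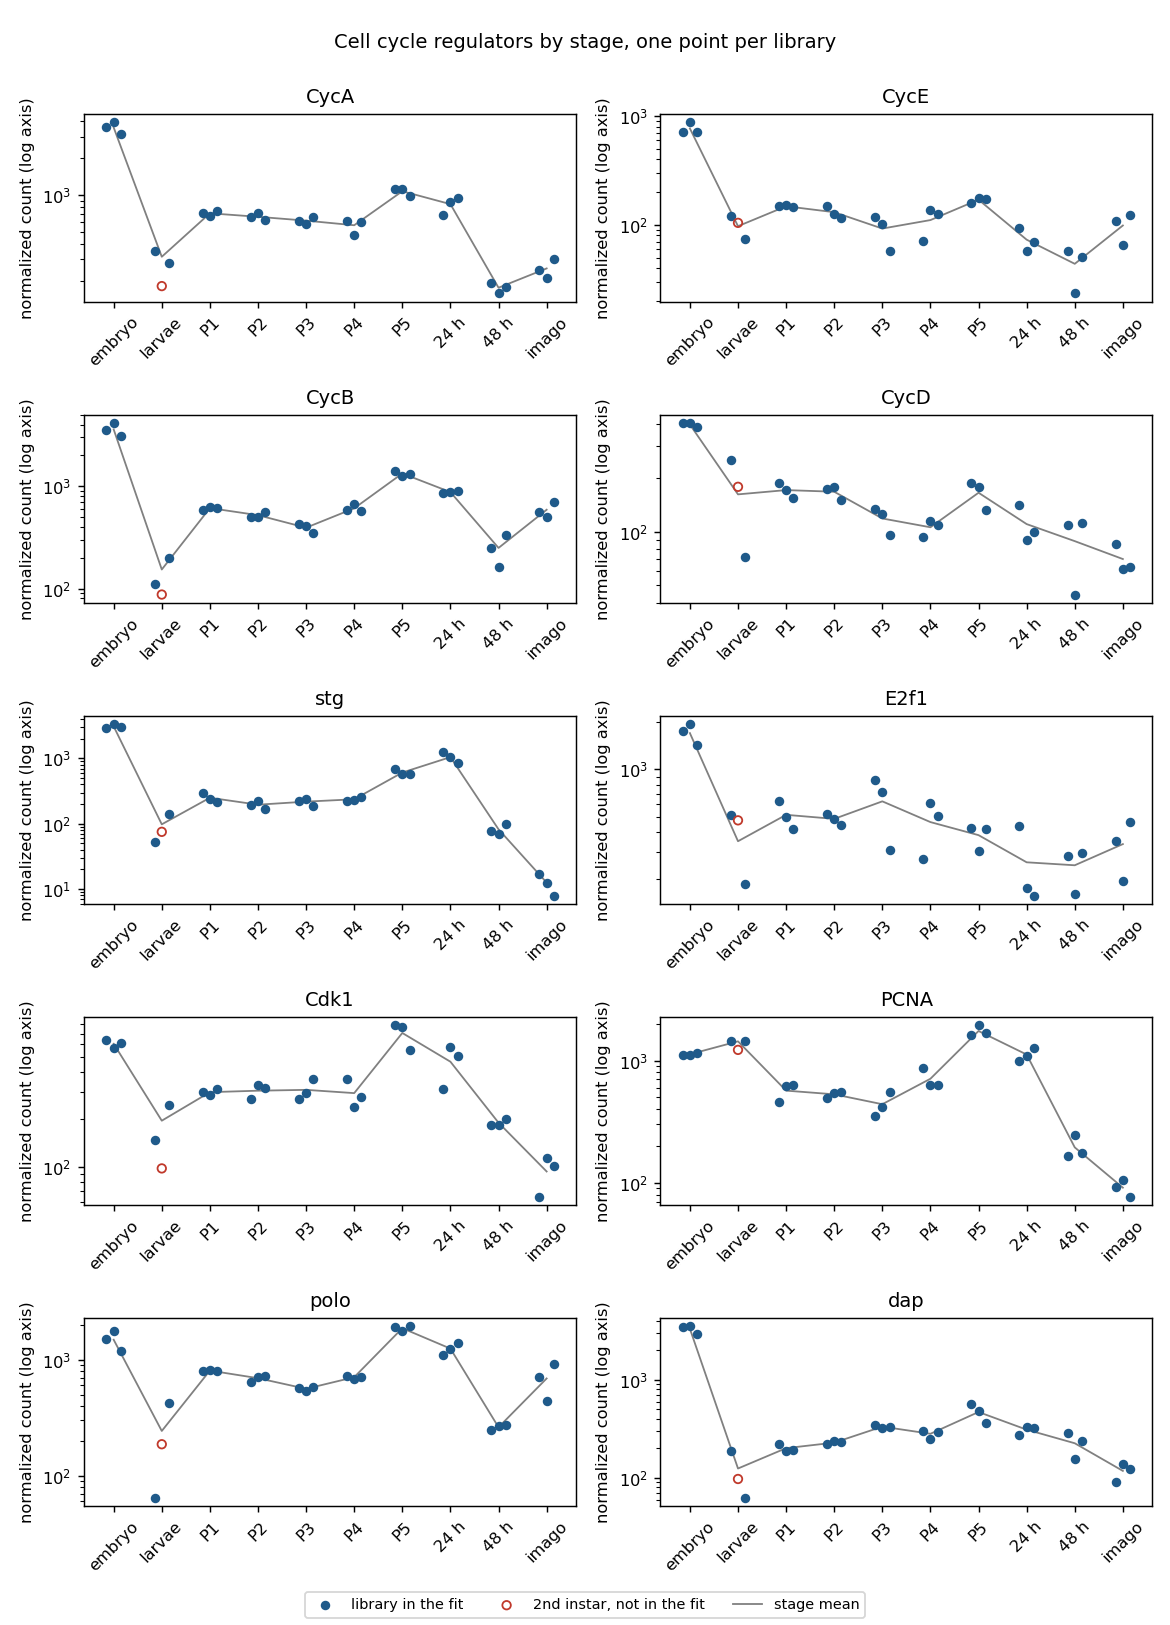
Normalized counts (log axis) of the 10 members in every library, by stage, with the mean of each stage as a gray line and the 2nd instar library as an open circle. In CycA, CycB, stg and dap the 3 embryo libraries lie above every other library, whereas in PCNA and polo all P5 libraries lie above them. In Cdk1 the P5 libraries of replicates 1 and 2 lie above the embryo ones, but that of replicate 3 lies below them. Only stg has its highest pupal mean in 24 h pupae.

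Ordered by the mean of the deposited values, CycB ran from embryo over P5, 24 h, P1, P4, imago, P2, P3 and 48 h to larvae, where the neighbours from P1 to P3 in this order did not differ beyond their spread. In CycA the order was embryo, P5, 24 h, P1, P2, P3, P4, larvae, imago and 48 h, with differences only below the embryo, between P4 and larvae and between imago and 48 h. For stg it was embryo, 24 h, P5, P1, P4, P3, P2, larvae, 48 h and imago, and only the neighbours from P1 to P2 and the pair of larvae and 48 h did not differ. The order of PCNA was P5, larvae, embryo, 24 h, P4, P1, P2, P3, 48 h and imago, with differences between 24 h and P4 and on both sides of 48 h. Cdk1 ran from P5 over embryo, 24 h, P3, P2, P1, P4, larvae and 48 h to imago, with differences between P4 and larvae and between 48 h and imago. In polo (P5, embryo, 24 h, P1, P4, P2, imago, P3, 48 h, larvae) only P3 and 48 h differed. In dap (embryo, P5, P3, 24 h, P4, P2, 48 h, P1, imago, larvae) the embryo differed from P5 and P1 from the imago. In CycD (embryo, P1, P2, P5, larvae, P3, 24 h, P4, 48 h, imago), CycE (embryo, P5, P1, P2, P4, imago, larvae, P3, 24 h, 48 h) and E2f1 (embryo, P3, P1, P2, P4, P5, imago, larvae, 48 h, 24 h) the embryo alone differed from the next stage.

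The genes of mitotic entry were highest or near their highest in embryos, low in larvae, raised at P5 and low again in 48 h pupae. CycB (FBgn0000405, 2R:22803521-22806948) had 3571, 4128 and 3074 normalized counts in embryos and 109.6 and 197 in the 1st and 3rd instar. It had 588, 630.2 and 615 at P1 and 504, 496 and 563 at P2, and 427, 404 and 348 at P3 in libraries that all lay below those of P1 and P2. It then had 580.4, 672 and 571 at P4, 1417, 1259.9 and 1318 at P5 and 859, 876 and 892 in 24 h pupae. The 48 h pupae had 249.6, 162 and 337 and the imago 563, 505 and 698. The embryo libraries were 23.4-fold above the larval ones on the means and did not overlap with them (log2 difference −4.32 ± 0.209, SE, limma, adjusted p = 7.10e-14). All P5 libraries lay above all P4 libraries (2.19-fold, 1.09 ± 0.187, SE, limma, adjusted p = 9.47e-05), and all libraries of 48 h pupae lay below those of 24 h pupae (−1.74 ± 0.187, SE, limma, adjusted p = 8.20e-08). Between P1 and P3 CycB fell (−0.60 ± 0.187, SE, limma, adjusted p = 0.030), but the call was lost with counts scaled to the library total, with a difference of −0.67, and when any 1 replicate number was left out, with differences of −0.52 to −0.68 (limma, adjusted p = 0.154, and 0.0561 to 0.144).

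CycA (FBgn0000404, 3L:11826719-11833578) went from 3624, 3954 and 3146 normalized counts in embryos to 352 and 278 in larvae and 479 to 748 over the 12 libraries of P1 to P4. At P5 it had 1115, 1129 and 992, in 24 h pupae 695, 888 and 956 and in 48 h pupae 193, 158 and 178. Its lowest stage was 48 h pupae, which were below larvae (−0.73 ± 0.161, SE, limma, adjusted p = 4.14e-04). In CycB the 48 h pupae were above larvae (0.60 ± 0.209, SE, limma, adjusted p = 0.0175), but the libraries overlapped. Both differences depend on the larval scaling. Before scaling, CycA had 93 counts in the 3rd instar, of a total of 13434700. In 48 h pupae it had 135 to 186 counts, and the largest total was 9436957. No other scaling is given for this pair of stages. CycA was 4.81-fold lower in 48 h than in 24 h pupae, with no overlap of the libraries (log2 difference −2.07 ± 0.144, SE, limma, adjusted p = 3.39e-11). CG7264 lies within CycA without overlapping an exon of it.

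The stg gene (FBgn0003525, 3R:29251826-29255800), which encodes the Cdc25 phosphatase that limits mitotic entry in many fly cells, had the widest range of the 10, 245-fold between the stage means of embryo and imago. It had 2969, 3330.4 and 2975 normalized counts in embryos, 52.9 and 143 in larvae, and 171 to 295 over P1 to P4. At P5 it had 679.7, 576 and 569, in 24 h pupae 1236, 1045 and 861, in 48 h pupae 77.7, 69.1 and 100.2 and in the imago 17.2, 12.6 and 7.96. Each of the P5, 24 h, 48 h and imago groups was separate from the next in every library. The level in 48 h pupae was 12.7-fold lower than in 24 h pupae (log2 difference −3.24 ± 0.200, SE, limma, adjusted p = 3.56e-12), and the level in the imago was 6.53-fold lower again (−1.54 ± 0.200, SE, limma, adjusted p = 5.64e-07). Between P5 and 24 h pupae stg rose further (log2 difference 0.74 ± 0.200, SE, limma, adjusted p = 0.015). Without 24 h replicate 1 the difference was 0.62 with adjusted p = 0.0776 in limma, past the threshold no longer.

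Cdk1 (FBgn0004106, 2L:10384739-10386262), the kinase that CycA and CycB bind, varied less. Its normalized counts were 634, 563 and 610.2 in embryos, 147 and 245 in larvae and 241 to 361 from P1 to P4. They were 789, 774 and 555 at P5, 314, 572 and 506 in 24 h pupae, 184, 185 and 202 in 48 h pupae and 64.6, 114 and 102 in the imago. All P5 libraries were above all P4 libraries (log2 difference 1.18 ± 0.205, SE, limma, adjusted p = 1.11e-04), and all imago libraries lay below every other library compared.

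The mitotic kinase polo (FBgn0003124, 3L:20309654-20313466) had 1512, 1758 and 1188 normalized counts in embryos and the most unequal larval pair, with 64.5 in the 1st and 421 in the 3rd instar. From P1 to P4 it lay at 535 to 821, and it rose to 1904, 1764 and 1935 at P5 (log2 difference from P4 1.36 ± 0.322, SE, limma, adjusted p = 0.00307). In 24 h pupae it had 1107, 1233 and 1399, in 48 h pupae 245, 266 and 274 and in the imago 710.2, 438 and 919. The fall to 48 h pupae was 4.76-fold (−2.11 ± 0.322, SE, limma, adjusted p = 1.54e-05), and the imago libraries were above all of the 48 h ones (1.24 ± 0.322, SE, limma, adjusted p = 0.00207). The rise from P4 to P5 was of the same size when replicate 2 was left out of every stage, 1.37, but no longer passed the threshold (limma, adjusted p = 0.103).

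PCNA (FBgn0005655, 2R:20261754-20262883), the clamp that holds DNA polymerase on its template, was the 1 member without a called fall between embryos and larvae. It had 1115, 1120.1 and 1143 normalized counts in embryos and 1438 and 1434 in the 1st and 3rd instar, and the 2nd instar library had 1223. At P1 it had 454, 621 and 627, all below the larval libraries (log2 difference −1.30 ± 0.189, SE, limma, adjusted p = 3.09e-06). It rose from 876, 626 and 628 at P4 to 1617, 1941 and 1677 at P5 (1.27 ± 0.169, SE, limma, adjusted p = 3.09e-06), where its mean was 155% of that in embryos. It then had 999.5, 1093 and 1268 in 24 h pupae, 166, 245 and 174 in 48 h pupae and 92.1, 105 and 77.0 in the imago. The fall between 24 h and 48 h was 5.75-fold with no overlap of libraries (−2.35 ± 0.169, SE, limma, adjusted p = 6.24e-11). The larval values depend on the scaling. When counts were scaled to the total of each library, which moved the median difference of all genes between embryos and larvae from 0.05 to −1.01 and that between larvae and P1 from 0.03 to 1.03, PCNA was lower in larvae than in embryos (−1.36, limma, adjusted p = 6.39e-04) and the difference between larvae and P1 was −0.20 (limma, adjusted p = 0.611).

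The G1 regulators CycE, CycD and E2f1 were highest in embryos, and only CycE had called differences at the steps after P1. CycE (FBgn0010382, 2L:15727581-15748150) had 718, 882 and 712 normalized counts in embryos, 119.9 and 74.7 in larvae, 161, 177 and 175 at P5, 92.7, 57.3 and 69.4 in 24 h pupae and 57.0, 23.4 and 51.2 in 48 h pupae. CycD (FBgn0010315, X:15906822-15909676) had 404, 404 and 384 in embryos, 251 and 71.7 in larvae and 44.5 to 187 over the 24 later libraries. E2f1 (FBgn0011766, 3R:21620304-21660871) had 1741, 1935 and 1423 in embryos, 511 and 188 in larvae and 158 to 856 later. In all 3 genes the embryo libraries lay above every other library and the embryo was the only stage that differed from its neighbour in the order of levels. Their fall from embryo to larvae was −2.66 ± 0.263 in CycE, −1.33 ± 0.298 in CycD and −2.31 ± 0.438 in E2f1 on the log2 scale (SE, limma, adjusted p = 8.68e-09, 4.99e-04 and 8.17e-05, respectively). For CycD it was −0.62 when replicate 3, which holds the 3rd instar, was left out of every stage. Exons of E2f1 overlap an antisense RNA gene (asRNA:CR46055) and exons of CycE overlap asRNA:CR44866 and lncRNA:CR44974. The kit keeps the strand, but whether the counting used it is not given in the sources used here, so that reads of these genes may be shared.

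Within a stage, the libraries of E2f1 and CycE ran in similar order at several stages. Among the 9 stages with 3 libraries in the comparison, they had the lowest library in common in 7 and the highest in 6. E2f1 and CycD likewise had the lowest in common in 7 and the highest in 6, while CycD and CycE shared the lowest in 8 but the highest in only 3. Such sharing was not particular to these 3 genes. CycA and dap shared the lowest library in 7 and the highest in 4, CycD and stg in 6 and 6, E2f1 and stg in 6 and 5 and Cdk1 and dap in 6 and 5. E2f1 and PCNA shared them in 0 and 0. The pairs named were picked from all pairs of members, and how often unrelated genes share them was not tested. At P3 the normalized counts of E2f1 were 856, 716 and 307 and those of CycE 118, 103 and 57.3 in replicates 1, 2 and 3. At P4 they were 269.7, 609.9 and 508 in E2f1 and 71.5, 136 and 125 in CycE, and in 24 h pupae 436, 177 and 158 and 92.7, 57.3 and 69.4. Replicate 3 was lowest in both genes at P3 and replicate 1 at P4, and 24 h replicate 1 was highest in both. In 24 h pupae both genes were lower than the mean of the other 9 stages (−0.91 ± 0.293 in E2f1 and −0.68 ± 0.176 in CycE, log2 scale, SE, limma, adjusted p = 0.0163 and 0.0034). That mean includes the high embryo value.

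The inhibitor dap (FBgn0010316, 2R:9712321-9716256), a member of the CIP/KIP family that stops cells from entering S phase, was high in embryos and had a smaller range among the pupal stages. It had 3504, 3519 and 2966 normalized counts in embryos and 187 and 62.7 in larvae, 26.7-fold less on the means (log2 difference −4.55 ± 0.252, SE, limma, adjusted p = 6.55e-13). It had 222, 190.0 and 192 at P1, 346, 327 and 329 at P3, 567, 479.5 and 366 at P5, 274, 334 and 325 in 24 h pupae and 285, 155 and 239 in 48 h pupae. From P1 to P3 the libraries did not overlap, with all P3 libraries higher, but the difference did not pass the test (0.65 ± 0.225, SE, limma, adjusted p = 0.0569). Between 24 h and 48 h pupae dap had a log2 difference of −0.44 ± 0.225 (SE, limma, adjusted p = 0.142), while stg had −3.24 and PCNA −2.35. The imago had 91.3, 139 and 124 normalized counts, all below the libraries of 48 h pupae (−0.77 ± 0.225, SE, limma, adjusted p = 0.0055).

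**Figure D2:**
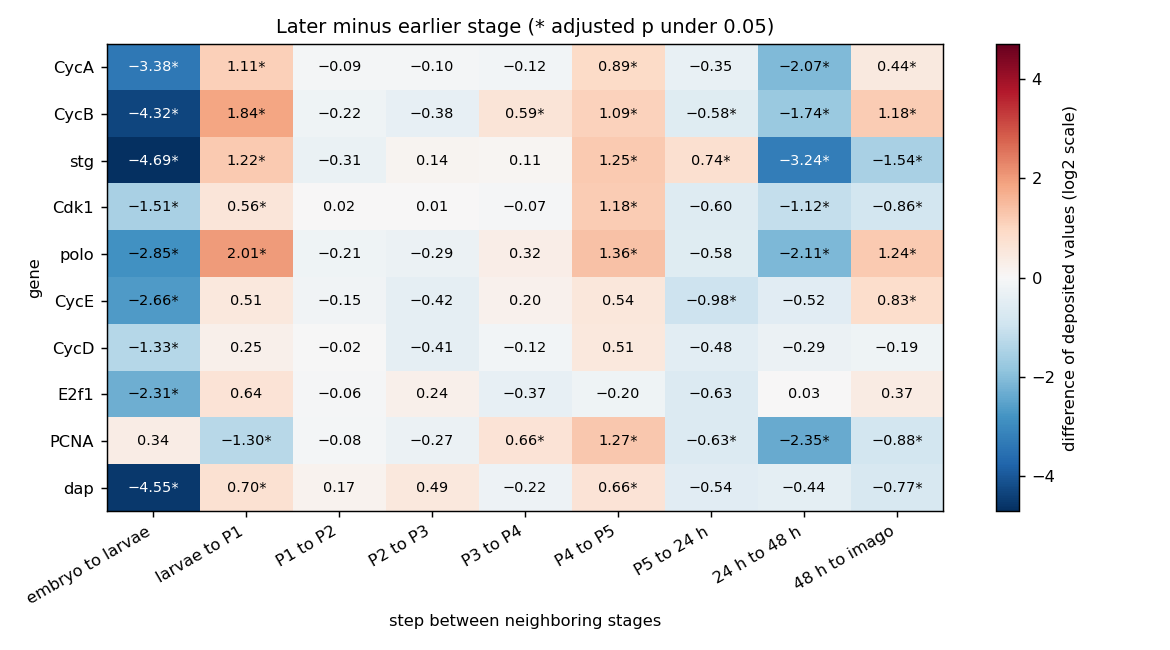
Difference of the deposited values (log2 scale) between each stage and the one before, for the 10 members, with an asterisk where the adjusted p in limma was under 0.05. Red is higher and blue lower in the later stage. Of the 90 differences 43 were called, 20 higher and 23 lower, with none between P1 and P2 or between P2 and P3. Among all genes, 2.72% to 37.6% were called higher at a step and 2.48% to 28.9% lower. The text gives these shares for each step.

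From one stage to the next, most members changed in the same direction between embryos and larvae, between P4 and P5 and between 24 h and 48 h pupae. Neighbouring steps share the libraries of the stage between them. From embryos to larvae 9 members fell and none rose, where 25.2% of all genes fell and 31.9% rose, and the median of the members was −2.75 on the log2 scale against 0.05 for all genes. The largest falls were those of stg (31.5-fold), dap and CycB. At this step 38 of 40 other genes of mitosis fell, among them borr of the chromosomal passenger complex (−2.95 ± 0.185, SE, limma, adjusted p = 4.75e-12) and the cytokinesis regulator tum (−2.84 ± 0.256, SE, limma, adjusted p = 1.86e-09). Of 19 genes of DNA synthesis 8 rose and none fell with the deposited values, but 2 rose and 3 fell with libraries shifted to equal medians, and none rose and 13 fell when counts were scaled to library totals. The largest rises with the deposited values were those of the flap nuclease Fen1 (1.02 ± 0.162, SE, limma, adjusted p = 9.43e-06) and of RfC4 of the clamp loader that places PCNA on DNA (0.98 ± 0.188, SE, limma, adjusted p = 9.52e-05). Of 21 genes of replication licensing 1 rose and 12 fell, of 17 other cyclins, Cdks and their regulators 2 rose and 11 fell, and of 8 genes of the E2F and Rb group 7 fell. Of 10 subunits and enzymes of the anaphase-promoting complex 1 rose and 4 fell. With scaling to library totals all 40 mitosis genes, 20 of replication licensing and all 10 of the anaphase-promoting complex fell. The fall of polo was −1.70 when replicate 1 was left out of every stage, which leaves the 3rd instar alone for larvae. It was −4.12 without replicate 3, which leaves the 1st.

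The instars, with 1 library each and therefore no test, differed among the members. In the 1st, 2nd and 3rd instar, polo had 64.5, 187 and 421 normalized counts, stg 52.9, 75.3 and 143 and Cdk1 147, 97.6 and 245. CycB had 109.6, 87.3 and 197 and CycA 352, 181 and 278. CycD had 251, 178 and 71.7, E2f1 511, 474 and 188, dap 187, 97.6 and 62.7 and CycE 119.9, 104 and 74.7. By normalized counts, polo, stg, Cdk1 and CycB among the genes of mitosis were thus highest in the 3rd instar but CycA in the 1st. CycD, E2f1, dap and CycE were highest in the 1st. The order depends on the scaling. The 1st and 3rd instar libraries had size factors of 0.775 and 0.335 but totals of 7837234 and 13434700 counts. Before scaling, CycB had 85 and 66 counts in them, Cdk1 114 and 82, stg 41 and 48 and polo 50 and 141. The summed level of the larval serum genes, which the fat body makes late in larval life, was 0, 1212 and 1154620 in the 1st, 2nd and 3rd instar.

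From larvae to P1, 6 members rose and 1 fell, where 32.1% of all genes rose and 28.9% fell. Those that rose were polo (2.01 ± 0.360), CycB (1.84 ± 0.209), stg (1.22 ± 0.224), CycA (1.11 ± 0.161), dap (0.70 ± 0.252) and Cdk1 (0.56 ± 0.229, all log2 differences with SE), and PCNA fell as described above. CycD, CycE and E2f1 were not called here. Under other processing their differences reached 1.46, 1.77 and 1.85, and each was called higher in at least 1 setting. Of 40 genes of mitosis 28 rose and none fell, with the largest rises in the kinesin Klp10A (1.86 ± 0.309, SE, limma, adjusted p = 1.87e-05) and the kinase gwl (1.48 ± 0.218, SE, limma, adjusted p = 3.81e-06). Scaled to library totals, all 40 rose. Of 19 genes of DNA synthesis 14 fell and none rose, and of 21 genes of replication licensing 14 fell and none rose, but with scaling to library totals 3 and 4 rose, respectively, and none fell, and with equal medians 7 licensing genes fell. Among the cyclins, Cdks and their regulators 9 of 17 rose and 3 fell, and in the E2F and Rb group 1 of 8 rose and 1 fell, whereas with library totals 13 and 6 rose and none fell. Of the anaphase-promoting complex 3 of 10 rose, and 9 with library totals. The rises of polo, stg, Cdk1 and dap depended on the library used for larvae. That of polo was 0.90 with the 3rd and 3.14 with the 1st instar alone, and that of stg 0.57 and 1.83, all 4 past the threshold (limma, adjusted p = 0.0273, 6.39e-08, 0.0463 and 2.47e-06). With the 3rd instar alone Cdk1 differed by 0.25 (limma, adjusted p = 0.315), and with the 1st instar alone dap differed by 0.12 (limma, adjusted p = 0.757).

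Between P1 and P2 and between P2 and P3 no member was called, where 2.72% and 4.19% of all genes rose and 3.25% and 2.48% fell. At an unadjusted p under 0.05, 0 and 1 members passed in limma, and voom with limma on the recovered counts also called 0 at both. The log2 differences of the members lay between −0.31 and 0.17 at the first step and between −0.42 and 0.49 at the second, with SE between 0.144 and 0.392. Over the 6 lists 1 gene was called at each step, Mcm5 of the replicative helicase lower at P2 (−0.51 ± 0.129, SE, limma, adjusted p = 0.0139) and fzr lower at P3 (−0.72 ± 0.151, SE, limma, adjusted p = 0.00222). Mcm5 was not called with equal medians (−0.50, limma, adjusted p = 0.0699) and neither was called with library totals (−0.52 and −0.89, limma, adjusted p = 0.761 and 0.303).

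At P4, 2 members rose and none fell against P3, PCNA (0.66 ± 0.169, SE, limma, adjusted p = 0.00642) and CycB (0.59 ± 0.187, SE, limma, adjusted p = 0.0281), where 11.1% of all genes rose and 8.24% fell. Both calls were lost with libraries shifted to equal medians, where the differences were 0.42 and 0.35 (limma, adjusted p = 0.122 and 0.17). Among the other cyclins, Cdks and their regulators, 5 of 17 rose and 1 fell, and 3 rose with either equal medians or library totals. The largest rises were those of trbl, which encodes a pseudokinase known to promote the breakdown of the stg protein, and fzr, which encodes an activator of the anaphase-promoting complex that has mitotic cyclins destroyed in G1. The normalized count of trbl was 282 ± 33.8 at P3, 1049 ± 46.8 at P4 and 387 ± 17.5 at P5 (SD, n = 3), and its 3 P4 libraries (1013 to 1102) were higher than those of every other stage. That of fzr was 210.2 ± 30.6, 599.6 ± 32.6 and 413 ± 30.4 (SD, n = 3). Both rose at P4 (log2 difference 1.78 ± 0.177 in trbl and 1.39 ± 0.151 in fzr, SE, limma, adjusted p = 2.67e-08 and 1.29e-07) and both fell at P5 (−1.36 ± 0.177 and −0.50 ± 0.151, SE, limma, adjusted p = 2.06e-06 and 0.0187). The fall of fzr was −0.39 with equal medians and −0.17 with library totals (limma, adjusted p = 0.0822 and 0.864), whereas trbl passed at both steps under both scalings. Of the replication licensing list 7 of 21 genes rose, of DNA synthesis 4 of 19 and of mitosis 6 of 40, and none fell. With equal medians 1 rose in each and 1 licensing gene fell, and with library totals only 3 genes of mitosis rose. At P4 itself none of the 10 members differed from the mean of the other 9 stages, where 18.9% of all genes were higher and 17.8% lower. At an unadjusted p under 0.05, 0 members passed in limma, and voom with limma called 0.

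At P5, 7 members rose and none fell against P4, where 7.93% of all genes rose and 10.8% fell. The median of the members was 0.99 and that of all genes −0.07 on the log2 scale. The members that rose were polo (2.64-fold on the means), PCNA (2.46-fold), stg (2.56-fold), Cdk1 (2.41-fold), CycB (2.19-fold), CycA (1.89-fold) and dap (1.67-fold), and in each the 3 P5 libraries lay above the 3 P4 libraries. The differences of CycE (0.54 ± 0.236), CycD (0.51 ± 0.267) and E2f1 (−0.20 ± 0.392, log2 scale, SE) did not pass the test (limma, adjusted p = 0.129, 0.23 and 0.818). Of the genes of DNA replication, 18 of 19 of DNA synthesis and 19 of 21 of replication licensing rose and none fell, and with library totals 16 rose in each. RnrS and RnrL, the subunits of the reductase that makes deoxynucleotides, rose from 393 to 1322 and from 339 to 915 mean normalized counts (log2 difference 1.67 ± 0.160 and 1.35 ± 0.206, SE, limma, adjusted p = 1.43e-08 and 2.16e-05). Of 40 genes of mitosis 22 rose and none fell, led by the kinase aurB (1.64 ± 0.340, SE, limma, adjusted p = 8.65e-04) and tum (1.46 ± 0.229, SE, limma, adjusted p = 3.05e-05). Cks30A, a small subunit that binds Cdk1, rose from 169.8 ± 32.0 to 797 ± 91.0 normalized counts (SD, n = 3) and was 263 ± 57.7 in 24 h pupae. It was 1 of 3 among the 17 other cyclins, Cdks and their regulators that rose, while 2 fell and the median was 0.10 on the log2 scale, and with library totals 5 rose and 1 fell. In the E2F and Rb group 3 of 8 genes rose, among them Rbf2 of the Rb family (0.94 ± 0.171, SE, limma, adjusted p = 1.96e-04), but 1 with library totals and 2 without 24 h replicate 1. Of the anaphase-promoting complex 3 of 10 rose, and 5 with library totals. The call of dap was lost when replicate 2 was left out, with a difference of 0.56 (limma, adjusted p = 0.413).

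**Figure D3:**
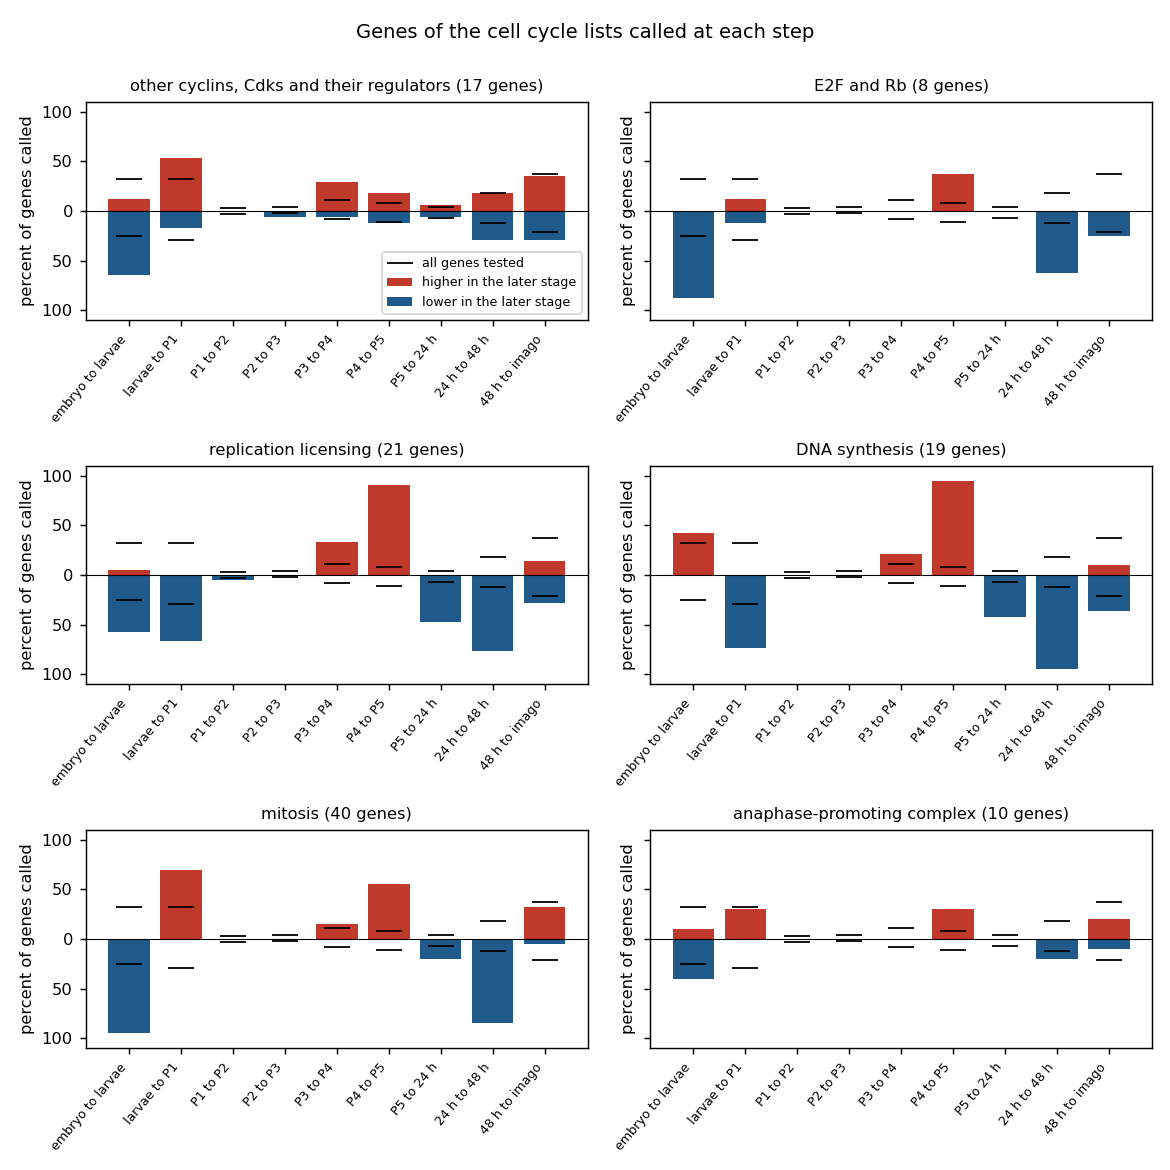
Percent of the genes of each of 6 lists that were called higher (red, upward) or lower (blue, downward) at each step, with black dashes at the percent of all genes tested. At P4 to P5 the red bars of DNA synthesis and replication licensing reach 18 of 19 and 19 of 21 genes, and at 24 h to 48 h the blue bars reach 18 of 19 and 16 of 21.

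Between P5 and 24 h pupae stg rose, whereas CycE (−0.98 ± 0.236, SE, limma, adjusted p = 0.00658), PCNA (−0.63 ± 0.169, SE, limma, adjusted p = 0.0148) and CycB (−0.58 ± 0.187, SE, limma, adjusted p = 0.0429) fell, where 4.38% of all genes rose and 7.36% fell. CycE fell from 161, 177 and 175 to 92.7, 57.3 and 69.4 normalized counts without overlap. Of the replication lists 8 of 19 and 10 of 21 genes fell and none rose, with Orc2 of the origin recognition complex (−0.98 ± 0.156, SE, limma, adjusted p = 8.59e-05) and the primase subunit Prim1 (−0.93 ± 0.178, SE, limma, adjusted p = 7.15e-04) falling most in theirs. Without 24 h replicate 1 it was 6 of 19 and 3 of 21, with equal medians 6 and 2 and with library totals 1 in each. Of the mitosis list 8 of 40 fell and none rose, and 4 fell without 24 h replicate 1 and 1 with equal medians. Without 24 h replicate 1, in which Edg78E had 9906 normalized counts against 81.9 and 98.4 in replicates 2 and 3, the only member called was CycE (−1.11, limma, adjusted p = 0.00625). PCNA then differed by −0.55 and CycB by −0.57 (limma, adjusted p = 0.0657 and 0.0923).

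From 24 h to 48 h pupae, 6 members fell and none rose, where 12.2% of all genes fell and 18.4% rose. The median was −1.43 for the members and 0.10 for all genes. The falls were 12.7-fold in stg, 5.75-fold in PCNA, 4.81-fold in CycA, 4.76-fold in polo, 3.51-fold in CycB and 2.44-fold in Cdk1, and in each of these 6 all libraries of 48 h pupae lay below all of 24 h pupae. E2f1 had a difference of 0.03 ± 0.392, CycD of −0.29 ± 0.267, dap of −0.44 ± 0.225 and CycE of −0.52 ± 0.236 (log2 scale, SE, limma, adjusted p = 0.988, 0.443, 0.142 and 0.0963). Of the lists, 18 of 19 genes of DNA synthesis, 16 of 21 of replication licensing and 34 of 40 of mitosis fell, and none rose, with 18, 16 and 33 falling when scaled to library totals. Mcm7 and dpa of the replicative helicase fell from 527 to 86.0 and from 412 to 74.2 mean normalized counts (−2.26 ± 0.154 and −2.10 ± 0.169, SE, limma, adjusted p = 2.39e-11 and 5.20e-10), and Cdk2, the partner of CycE, from 218 ± 30.1 to 45.2 ± 9.69 (SD, n = 3). Of the cyclins, Cdks and their regulators 3 of 17 rose and 5 fell, of the E2F and Rb group 5 of 8 fell, with the largest fall in Rbf2 (−1.21 ± 0.171, SE, limma, adjusted p = 5.70e-06), and of the anaphase-promoting complex 2 of 10 fell. With equal medians no gene of the cyclin and Cdk list rose and 11 fell, and 8 of the anaphase-promoting complex fell. With library totals 1 gene of the first list rose and 6 fell, and 2 of the E2F and Rb group and 4 of the anaphase-promoting complex fell. Among those that rose was trbl (0.71 ± 0.177, SE, limma, adjusted p = 0.00328), which with equal medians had 0.44 (limma, adjusted p = 0.0826). The summed level of 5 neuroblast markers (wor, ase, dpn, mira and insc) was 185, 153 and 161 in 24 h and 44.5, 50.3 and 54.5 in 48 h pupae, with 3 of the 5 lower in every library of 48 h pupae and none at 0 in all libraries of a stage, and its part in the result was not tested. Without 24 h replicate 1 the same 6 members were called.

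In the imago, 4 members were higher and 4 lower than in 48 h pupae, where 37.6% of all genes were higher and 20.9% lower. The higher ones were polo (1.24 ± 0.322), CycB (1.18 ± 0.187), CycE (0.83 ± 0.236) and CycA (0.44 ± 0.144), and the lower ones stg (−1.54 ± 0.200), PCNA (−0.88 ± 0.169), Cdk1 (−0.86 ± 0.205) and dap (−0.77 ± 0.225, all log2 differences with SE). CycA (0.00) and CycE (0.39) were not called with libraries shifted to equal medians (limma, adjusted p = 0.992 and 0.117). Of the mitosis list 13 of 40 genes rose and 2 fell, with the kinesin Klp3A rising from 216 to 756 mean normalized counts (1.60 ± 0.275, SE, limma, adjusted p = 2.53e-05), while of the DNA synthesis list 2 rose and 7 fell. With equal medians 3 mitosis genes rose and 5 fell, and no gene of DNA synthesis rose and 16 fell. Of the cyclins, Cdks and their regulators 6 of 17 rose and 5 fell, and of replication licensing 3 of 21 rose and 6 fell, against 2 and 8 and 2 and 14 with equal medians. The Cdc25 gene twe, which acts in meiosis of the testis and is one of the 8 testis markers, rose from a mean of 88.2 to 351 normalized counts (1.72 ± 0.252, SE, limma, adjusted p = 3.11e-06). The summed level of the testis markers (aly, can, bol, twe, dj, Mst87F and the protamine genes Mst35Ba and Mst35Bb) was 1347, 704 and 3206 in 48 h pupae and 8065, 16492 and 12415 in imago males, with 7 of the 8 higher in every imago library and none at 0 in all libraries of either stage. That of the germ line markers vas, nanos, aub, bam and bgcn was 134 to 219.6 and 254 to 397, with 1 of the 5 higher in every imago library. Their part in the result was not tested.

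Set against the mean of the other 9 stages, all 10 members were higher in the embryo and all 10 lower in 48 h pupae, where 27.6% of all genes were higher and 42.8% lower in the embryo and 26.8% higher and 25.0% lower in 48 h pupae. For a stage after the embryo, that mean includes the high embryo value, so that a call of lower partly restates it. In dap, called lower in 48 h pupae, the mean deposited value there was 7.98, above P1 (7.87), the imago (7.22) and larvae (7.16). At P5, 7 were higher and none lower (12.8% and 20.9% of all genes). In 24 h pupae 6 were higher and 2 lower (14.9% and 24.6%), and in larvae 1 was higher and 6 lower (29.1% and 39.3%). In the imago none was higher and 6 were lower (43.8% and 28.3%). At P1 (14.3% higher and 22.3% lower among all genes), P2 (13.0% and 21.1%) and P3 (13.5% and 20.3%) at most 2 were called, all lower, namely dap at P1, stg at P2 and CycB and PCNA at P3. The lowest stage was not the same for all members. By the mean normalized count it was the imago for CycD, stg, dap, PCNA and Cdk1, the larvae for CycB and polo, and 48 h pupae for CycA, CycE and E2f1. In CycD, CycE, dap, E2f1 and polo the 2 lowest stages did not differ (limma, adjusted p = 0.575, 0.0963, 0.881, 0.988 and 0.249, respectively). By the deposited values the lowest stage was the larvae for dap and 24 h pupae for E2f1.

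Ratios of members within a library do not depend on its scaling. Since counts are not divided by gene length, only their change between stages is read. The ratio of stg to CycB was 0.831, 0.807 and 0.968 in embryos, 0.480, 0.457 and 0.431 at P5, 1.44, 1.19 and 0.964 in 24 h pupae and 0.311, 0.428 and 0.298 in 48 h pupae. In the imago it was 0.0306, 0.0250 and 0.0114, so that all 24 h libraries lay above those of P5 and 48 h pupae, and all imago libraries below every other library. The ratio of PCNA to CycB was 0.271 to 0.372 in embryos, 13.1 and 7.27 in the 1st and 3rd instar, 1.14 to 1.54 at P5 and 0.110 to 0.207 in the imago, and the larval libraries were above all others. The ratio of the inhibitor dap to CycE was 3.99 to 4.88 in embryos, 1.47 to 1.99 at P2, 2.10 to 3.53 at P5, 4.66 to 6.60 in 48 h pupae and 0.848 to 2.12 in the imago. It was higher in every library of 48 h pupae than in any library of P1, P2, P5 or the imago. The ratio of CycB to CycA was 2.29 to 2.40 in the imago and at most 1.90 in any other library.

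**Figure D4:**
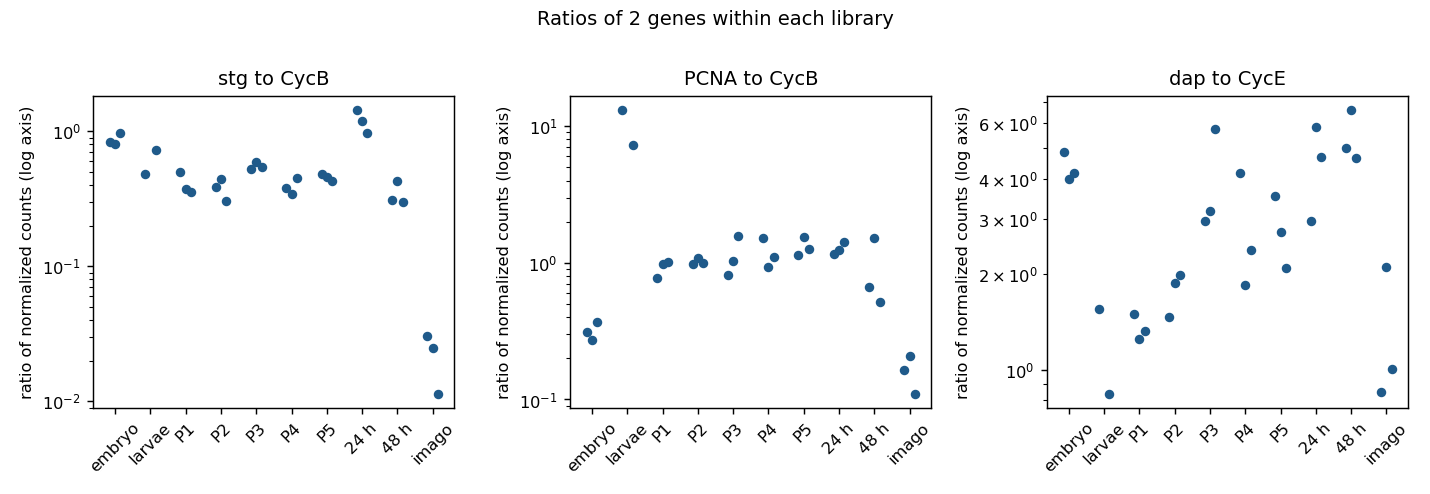
Ratio of the normalized counts of 2 members within each library (log axis), by stage, for stg to CycB, PCNA to CycB and dap to CycE, with 1 point per library and the 2nd instar left out. The ratio of stg to CycB is highest in 24 h pupae and embryos and lowest in the imago, and that of PCNA to CycB is highest in the 2 larval libraries.

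The genes whose profile over the 10 stage means was most like that of a member were looked up among all genes of the table. For PCNA they were DNAlig1 (r = 0.984), dUTPase (r = 0.981) and RnrL (r = 0.980), all 3 in the DNA synthesis list. For CycB they were thr (r = 0.983), CycB3 (r = 0.974) and Su(var)2-10 (r = 0.971), where thr encodes a partner of separase and CycB3 another mitotic cyclin, and for polo they were Mps1 (r = 0.990), Klp67A (r = 0.970) and Mink (r = 0.957), where Mps1 is a spindle checkpoint kinase. For stg they were Brd7-9 (r = 0.987), Chro (r = 0.986) and mod(mdg4) (r = 0.977), and for dap spi (r = 0.985), spdo (r = 0.977) and Cnb (r = 0.975). CycA had pon, SMC1 and CG31365, and CycD had CG5746, mip120 and Su(var)3-3. CycE had FoxK, Mondo and nub, E2f1 had Ogg1, wcy and CG17528, and Cdk1 had SMC2, RhoGEF4 and dah. In these members r lay between 0.965 and 0.986. The coefficients are Pearson correlations of deposited values across 10 stages, chosen as the highest of the table, and they share the libraries and, in most cases, the high embryo value.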

How the data were processed

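RNA-seq values of 30 *D. melanogaster* libraries were analysed, and those of *D. virilis* were not used here. Per the study's methods, the authors filtered reads with fastp, mapped them with Kallisto to the BDGP6.46 transcriptome, summed them to genes and transformed the counts with the variance stabilizing function of DESeq2 before deposition, which gives deposited values in log2 units. Inverting it gave whole numbers (within 0.02 for counts up to 200) in every library, with the smallest step as 1 count. Levels are these counts divided by the size factor. Stages were compared in 1 limma fit (limma 3.58.1, R 4.3.3, eBayes with trend) of the deposited values of 29 libraries, with Benjamini-Hochberg adjustment over 14047 varying genes per comparison and a threshold of 0.05. Since p-values rest on 3 pools per stage (2 in larvae), they set a difference against the spread between pools within stages. This spread was estimated once per gene over all 10 stages. The 2 larval pools were of different instars, so that p-values with larvae do not measure a spread between like larval pools. In polo the larval pair had an SD of 1.59 in the deposited values, whereas its differences from larvae to P1 carried an SE of 0.360. The fit was also run on simulated counts with genes changed at 1 step, and no result given here rests on that run. Genes were placed by identifier in BDGP6.54. The text names the 10 members, the 3 genes nearest in profile and, per list and step, up to 2 genes with the largest rise and fall. Further genes were named after their values were seen. All genes of the 6 pathway lists and all marker genes matched. The members and lists were chosen with earlier results of these data known. Alternatives covered libraries, scale, scaling, variance, filter, voom, a replicate block and each replicate left out. Scaling to library totals, leaving out 24 h replicate 1 and the alternatives for P1 against P3 were chosen after seeing the data.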

Additional observations from a re-analysis of the deposited data

How the results depend on the processing

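Of the 43 called differences between neighbouring stages, 28 passed under every alternative run and 15 did not, and of the 47 others 36 stayed uncalled. The numbers of members called between embryos and larvae, larvae and P1, P4 and P5, and 24 h and 48 h pupae stayed within 1.5 times their main value in every alternative. Which members were called between larvae and P1 did change. CycD, CycE and E2f1 were each called in at least 1 alternative, and dap, Cdk1 and PCNA were each lost in at least 1. Between P3 and P4 the number was 2, with 0 called with libraries shifted to equal medians, 0 with counts scaled to the library total and 0 to 2 with 1 replicate number left out. Between P5 and 24 h pupae it was 4, with 7 without the larval libraries, 2 on log2 of the normalized count plus 1, 2 with equal medians, 0 with library totals, 1 without 24 h replicate 1 and 0 to 4 with 1 replicate number left out. Between 48 h pupae and imago it was 8, and 5 with library totals. Against the other stages, P1 had 1 (2 with equal medians, 0 with library totals, 0 to 2 with 1 replicate number left out). P2 had 1 (3 without larvae, 0 on the log2 scale plus 1, 0 with equal medians, 0 with library totals, 0 to 1 with 1 replicate number left out). P3 had 2 (5, 1 and 1 without larvae, with equal medians and with library totals, 1 to 2 with 1 replicate number left out), P4 had 0 (3 without larvae), 24 h pupae had 8 (4 to 8 with 1 replicate number left out) and the imago had 6 (10 with equal medians). The cause of these changes was not tested, except that leaving out a replicate number also leaves fewer samples.

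The sign turned in PCNA between embryos and larvae with library totals (−1.36), and in CycD in larvae against the other stages with library totals (−1.19) and between −0.65 without replicate 1, which leaves the 3rd instar, and 0.72 without replicate 3, which leaves the 1st. With equal medians the median of all genes in the imago against the other stages moved from 0.17 to −0.51.

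The labels do not say whether libraries with the same replicate number in different stages share a batch. Of 108 pairs of libraries with the same number in different stages, 38 had deviations from their stage means that correlated above 0.1 (mean −0.013, range −0.661 to 0.502). Pairs with different numbers were not set beside them, so that a shared batch was not tested. With a replicate block the numbers of members called were unchanged in every comparison, for example 7 between P4 and P5 and 6 between 24 h and 48 h pupae.

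The larvae rest on 1 library each of 2 instars, whose members differ by up to several times, and no call on an instar is possible.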
